A study of Homo sapiens with 6 samples.

Results

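Keratins are the intermediate filament proteins of epithelial cells. The genes described here are those of the deposited count table whose symbol begins with KRT followed by a digit and whose gene class is protein-coding, which gave 55 of 58735 genes. RNA had been sequenced from HCT-8, an established human line derived from an adenocarcinoma of the colon and kept as an adherent layer. The control group consisted of 3 libraries from cells without treatment. The 5-FU group consisted of 3 libraries from the same line treated with 5-fluorouracil (5-FU), a fluoropyrimidine that inhibits thymidylate synthase and can enter both RNA and DNA. Cells received it at the 10% inhibitory concentration, a low dose; the molar dose is not given in the sources used here, nor is the length of treatment. No other agent or genotype separates the groups in the labels. The labels do not say that the libraries of a group came from separate cultures, and p-values therefore reflect only how far these libraries vary, which may be technical.

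Keratins fall into acidic type I and basic type II proteins, and a filament is built from heterodimers of one of each. Simple, single-layered epithelia such as that of the colon are known for KRT8 and its partner KRT18, joined by KRT19 and, in differentiated cells, KRT20. Stratified epithelia pair other keratins in their basal and upper layers, and hair and its follicle have a set of their own.

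By these textbook roles the 55 genes comprised 5 simple epithelial keratins, 20 of stratified epithelia, 26 of hair and hair follicle, and 4 others (KRT23, KRT24, KRT80 and KRT222). By type, 29 were type I and 26 type II. The test required about 10 counts in at least 3 libraries, and 20 of the 55 genes met this. Of these 20, 9 were called higher and 2 lower after 5-FU by the quasi-likelihood test of edgeR (adjusted p below 0.05), and 9 were not called. Over all 19771 tested genes, 36.3% were called higher, 33.9% lower and 70.2% in either direction. Over the 14187 tested protein-coding genes, the class of all keratins here, 27.8% were called higher and 43.6% lower. The median log2 fold change was 0.58 over the 20 tested keratins and 0.09 over all tested genes. Of the 20 genes, 6 were tested through their 5-FU libraries, having reached the minimum in under 3 control libraries (KRT20, KRT5, KRT16, KRT12, KRT3 and KRT34), and 4 of those 6 are among the 9 called higher. The remaining 5 called higher, KRT15, KRT13, KRT80, KRT81 and KRT86, had reached it in all 3 control libraries.

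Direction went with abundance over all genes of these libraries. CPM are counts scaled to the size of the library. Among tested genes with a mean of both groups under 10 CPM, 53.8% were called higher and 11.1% lower. Among those at or above that level, 21.4% were called higher and 53.2% lower. Total counts ran from 18459939 to 23495607 per library. Counts from the mitochondrial genome took 4.66% to 4.88% of the control libraries and 25.5% to 28.5% of the 5-FU libraries, and their part in the results below was not tested beyond a fit without those genes, which gave 9 keratins higher and 2 lower as well.

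Of 9 markers of the colon epithelium 8 were tested, with 2 higher, 3 lower and 3 not called. EPCAM, an epithelial adhesion molecule, fell from 465 ± 58.2 to 241 ± 28.4 CPM, and E-cadherin (CDH1) stood at 560 ± 102 and 624 ± 83.5 CPM (mean ± SD, n = 3 per group). CDX2 (125 ± 18.5 to 56.6 ± 4.40 CPM) and LGALS4 (65.5 ± 13.8 to 15.2 ± 4.33 CPM) were called lower like EPCAM. CDH1, CDH17 and VIL1 were not called. CEACAM5, GPA33 and PHGR1 had 0 to 18 counts in the control libraries. CEACAM5 and GPA33 were the 2 called higher, CEACAM5 being tested through its 5-FU libraries, and PHGR1 was not tested. Of 16 markers of other cell types 6 were tested, with 3 higher and 3 not called, and the summed level of all 16 was 26.8 to 31.0 CPM in the control and 50.4 to 83.7 CPM in the 5-FU libraries. COL1A1, a fibrillar collagen, was the largest part of that sum and rose (log2 fold change 1.48), while the monocyte gene CD14 did not pass (-0.12, and 0.24 with upper-quartile scaling). The fibroblast genes DCN and LUM had 0 counts in all 6 libraries, COL1A2 had a single count, and the leukocyte gene PTPRC had 0 to 7 per library. In RNA from a whole culture, fewer cells of a type and less RNA per cell cannot be told apart.

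**Figure D1:**
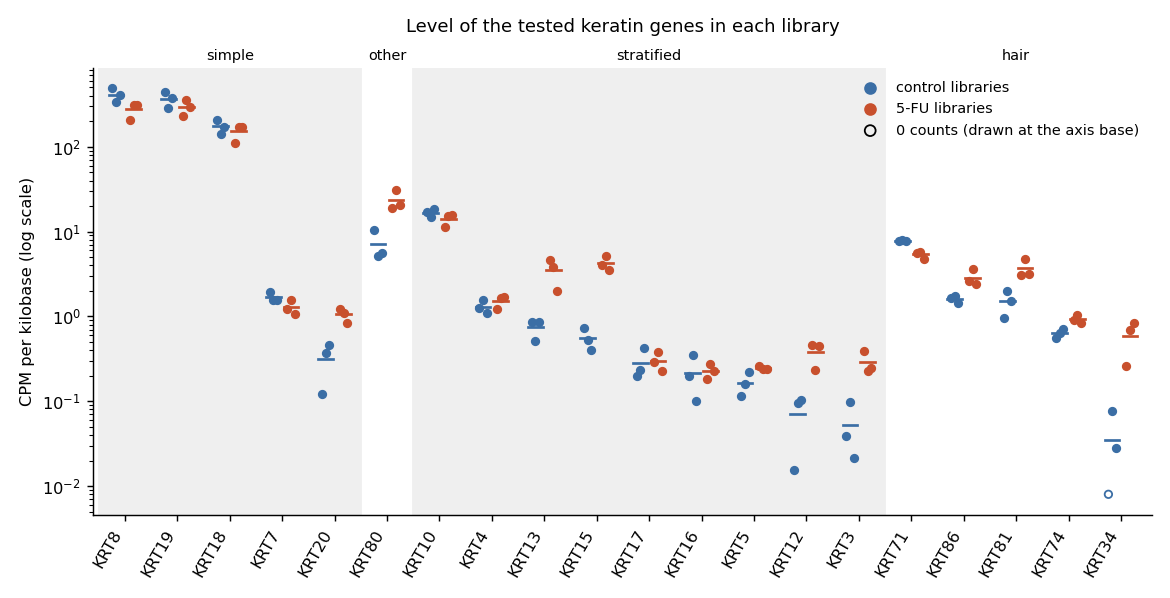
Level of each tested keratin in every library, as library-scaled counts (CPM) per kilobase of annotated exon on a log axis. Points are libraries (blue control, red 5-FU), short bars group means, and the open point a library with 0 counts drawn at the base of the axis; KRT8, KRT19 and KRT18 lie above 100 in each library, and the 5-FU points of KRT15, KRT13 and KRT80 stand clear of their control points.

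Promoter sequences were available from RefSeq for 34 of the 55 genes, and those of 4 members called in either direction are printed. None was available for KRT18, KRT19, KRT7, KRT80, KRT15, KRT13, KRT81 or KRT86. KRT12 and KRT20 are neighbours on chromosome 17 that were both called higher, KRT34 had the largest fitted fold change, and KRT71 was called lower. Each window holds 250 bases before and 50 after the RefSeq start, comes from GRCh38.p14, and is read 5′ to 3′ on the gene's own strand, which is the minus strand for all 4. KRT12 is at chr17:40867174-40867473, KRT20 at chr17:40885193-40885492, KRT34 at chr17:41382257-41382556 and KRT71 at chr12:52553096-52553395. These RefSeq starts lie 0, 15, 97 and 2 bases from the nearest start of a principal transcript in GENCODE 29. The start behind the KRT8 window lies 19851 bases from such a start, and that window is not printed. Capitals mark GGAAG, or CTTCC where it is on the opposite strand, the core letters bound by ETS factors; this is the family of ELF3, which the study's title names.
KRT12: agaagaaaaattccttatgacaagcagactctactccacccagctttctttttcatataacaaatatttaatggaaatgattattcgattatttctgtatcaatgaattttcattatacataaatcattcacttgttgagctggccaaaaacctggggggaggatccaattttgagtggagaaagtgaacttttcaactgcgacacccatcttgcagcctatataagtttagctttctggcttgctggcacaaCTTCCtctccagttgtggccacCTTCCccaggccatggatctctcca
KRT20: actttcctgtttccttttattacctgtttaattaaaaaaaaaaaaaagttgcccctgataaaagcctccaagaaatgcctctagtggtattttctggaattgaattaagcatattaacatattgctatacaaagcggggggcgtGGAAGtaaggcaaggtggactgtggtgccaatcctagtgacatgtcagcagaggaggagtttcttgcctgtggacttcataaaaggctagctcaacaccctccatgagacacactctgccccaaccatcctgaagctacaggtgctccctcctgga
KRT34: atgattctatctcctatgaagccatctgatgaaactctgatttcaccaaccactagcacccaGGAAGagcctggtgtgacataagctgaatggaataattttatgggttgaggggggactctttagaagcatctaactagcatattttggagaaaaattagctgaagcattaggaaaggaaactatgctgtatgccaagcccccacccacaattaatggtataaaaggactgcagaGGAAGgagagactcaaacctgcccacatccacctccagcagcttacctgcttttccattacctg
KRT71: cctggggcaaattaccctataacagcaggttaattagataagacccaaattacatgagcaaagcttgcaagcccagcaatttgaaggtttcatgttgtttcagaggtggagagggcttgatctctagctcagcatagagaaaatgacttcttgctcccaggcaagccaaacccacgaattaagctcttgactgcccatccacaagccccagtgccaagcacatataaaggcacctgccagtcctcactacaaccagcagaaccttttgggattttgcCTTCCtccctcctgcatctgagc

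GGAAG occurred 2 times in the windows of KRT12 and KRT34 and 1 time in those of KRT20 and KRT71, so members called in opposite directions both held it. Over all 38 keratin windows 57.9% held GGAAG, against 71.9% of 35116 RefSeq windows of the same length. Most of the 38 belong to keratins that were not tested, and KRT40 and KRT85 had more than 1 each. The keratin shares given here therefore do not describe the abundant or most changed keratins. TATAAA, the letters of a TATA box, began 31 bases before the start of KRT34 and 28 before that of KRT71 and was not found in the windows of KRT12 and KRT20. It occurred in 55.3% of the keratin windows and 11.5% of all windows. CCAAT was found in 47.4% of keratin windows against 34.6%, GGGCGG in 15.8% against 45.0%, and TGANTCA, the letters of an AP-1 site, in no keratin window against 7.71%. Base composition differed as well. The median share of G and C was 58.7% over the RefSeq windows, and every keratin window but those of KRT9 and KRT79 lay below it. The motif shares were not adjusted for this, and its part in them was not tested. Both strands were searched, and none of the 5 motifs contains another. A match is a description of letters and says nothing of binding in these cells.

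Of the simple epithelial keratins, KRT8, KRT18 and KRT19 were the most abundant keratins in both groups, and KRT8 alone of them was called. KRT8, the type II keratin of simple epithelial filaments, stood at 3367, 2335 and 2781 CPM in the control libraries and at 1441, 2167 and 2109 CPM in the 5-FU libraries. The lowest control library lay just above the highest 5-FU library, and 5-FU replicate 1 was the lowest of all. KRT8 was called lower, at a log2 fold change of -0.57 (SE 0.21, edgeR adjusted p = 0.0269). That call was lost under 7 of 19 alternatives, among them without control replicate 1 (-0.46, edgeR adjusted p = 0.096), without 5-FU replicate 1 (-0.39, edgeR adjusted p = 0.0553), without both (-0.27, edgeR adjusted p = 0.216) and with upper-quartile scaling (-0.21, edgeR adjusted p = 0.33). Its sign was negative in all 19.

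KRT18, the type I partner of KRT8, had 666, 456 and 556 CPM in control and 359, 556 and 549 CPM after 5-FU. The groups overlapped, and the difference did not pass (-0.20, SE 0.19, edgeR adjusted p = 0.381), with a sign that turned positive under 4 alternatives. KRT19, a small type I keratin that lacks the usual tail domain and also pairs with KRT8, had 1038, 670 and 880 CPM against 536, 826 and 683 CPM. Its groups overlapped as well (-0.34, SE 0.20, edgeR adjusted p = 0.144; 0.020 with upper-quartile scaling), though it was called lower without control replicate 2 (-0.53, edgeR adjusted p = 0.0309). For KRT8, KRT18 and KRT19 alike, control replicate 1 was the highest library and 5-FU replicate 1 the lowest.

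The ratio of KRT8 to KRT18 counts, which does not depend on how a library is scaled, was 5.06, 5.13 and 5.00 in control and 4.02, 3.90 and 3.84 after 5-FU. Each 5-FU ratio lay below each control ratio, at 3.92 ± 0.09 against 5.06 ± 0.06 (mean ± SD, n = 3 per group; no test was run on a ratio). The libraries of a group were closer together in this ratio than in the level of either gene. The ratio of KRT8 to KRT19 counts was 3.24, 3.48 and 3.16 in control and 2.69, 2.62 and 3.09 after 5-FU, again without overlap. KRT8 and KRT18 stand on opposite strands with overlapping ends, and 16.3% of the exonic bases of KRT18 and 7.63% of those of KRT8 lie in the other gene's exons. Whether counting used strand is not given in the sources used here, so reads from that stretch cannot be assigned from the table.

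**Figure D2:**
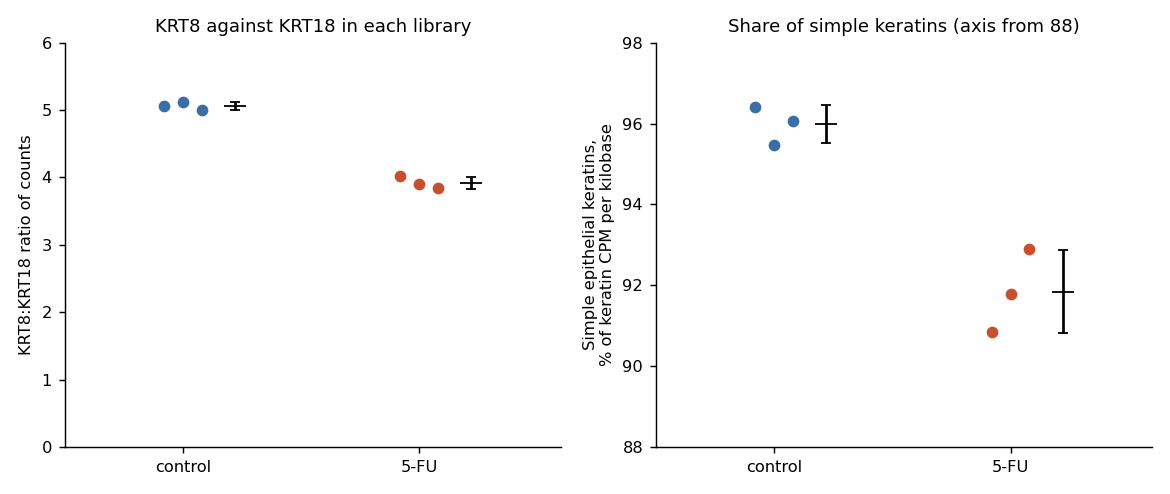
Left, ratio of KRT8 to KRT18 counts in each library (axis from 0); right, simple epithelial keratins as a percentage of all keratin CPM per kilobase (axis from 88 to 98). Points are libraries and crosses the mean ± SD of 3; the 5-FU ratios lie between 3.84 and 4.02 and the control ratios between 5.00 and 5.13.

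By mean CPM, KRT8 ranked 13 among all genes in control and 19 after 5-FU, KRT19 ranked 99 and 56, and KRT18 ranked 201 and 99. KRT19 and KRT18 thus stood higher in the order of genes after 5-FU, although their own levels were not called higher. Per kilobase of annotated exon the control levels were 411 CPM for KRT8, 369 for KRT19 and 174 for KRT18, and the 5-FU levels were 277, 292 and 152. The means of KRT8 and KRT19 lay within their spread of each other in both groups. This order rests on the length used, since the deposited length of KRT8 is 6881 bases and its principal transcript 2126 bases, against 2336 and 1390 bases for KRT19.

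KRT7, a type II keratin of ducts and glands, had 7.94, 6.33 and 6.37 CPM in control and 5.04, 6.42 and 4.36 CPM after 5-FU. The groups overlapped through 5-FU replicate 2, and the difference did not pass (log2 fold change -0.39, edgeR adjusted p = 0.114), though it did without that library (-0.57, edgeR adjusted p = 0.0459). KRT20, a type I keratin of differentiated intestinal cells, had 5, 15 and 17 counts in control and 44, 39 and 33 after 5-FU. Every 5-FU library was above every control library, and KRT20 was called higher at a log2 fold change of 1.74 (SE 0.41, edgeR adjusted p = 0.00238). Its level was 1.05 CPM per kilobase in the 5-FU libraries, far under that of KRT8, KRT18 and KRT19. Among the 5 simple keratins, 1 was therefore called higher, 1 lower and 3 not, with a median log2 fold change of -0.34.

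KRT80, a type II keratin placed outside the simple, stratified and hair groups here, was the most abundant of the keratins called higher. Its levels were 45.5, 22.6 and 24.1 CPM in control and 81.9, 134 and 89.1 CPM after 5-FU. The groups did not overlap, although control replicate 1 stood well above the other control libraries. The mean went from 30.8 ± 12.8 to 102 ± 28.2 CPM, a log2 fold change of 1.72 (SE 0.26, edgeR adjusted p = 0.000132). KRT80 moved from rank 7259 to rank 1551 among all genes, and per kilobase it passed KRT10 and KRT71 (7.07 CPM in control and 23.4 after 5-FU). The ratio of its counts to those of KRT8 was 0.0106 ± 0.0026 in control and 0.0536 ± 0.010 after 5-FU. KRT23, KRT24 and KRT222, the other genes outside the 3 groups, were not tested.

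**Figure D3:**
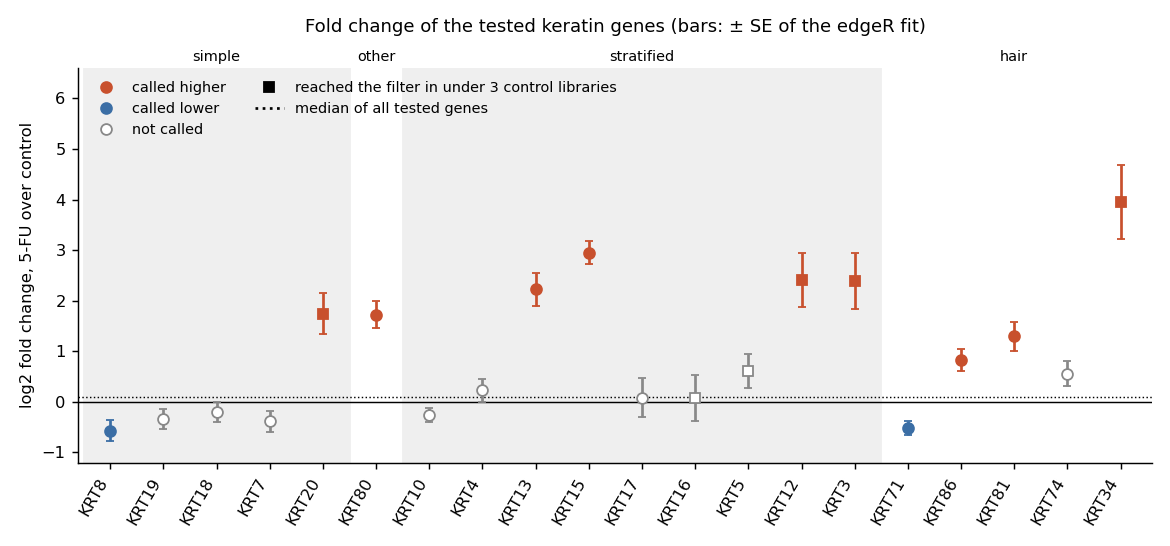
Log2 fold change of the 20 tested keratins, 5-FU over control, with bars for ± SE of the edgeR fit. Red and blue mark genes called higher and lower, open symbols those not called, and squares genes that reached the count minimum in under 3 control libraries; the dotted line is the median of all tested genes at 0.09.

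Of the 20 keratins of stratified epithelia 9 were tested, and 4 were called higher, 0 lower and 5 not. KRT15, a type I keratin of basal cells, had 114, 82 and 58 counts in control and 563, 708 and 529 after 5-FU. All 3 5-FU libraries stood far above the control libraries. The level rose 7.72-fold, from 3.89 ± 1.14 to 30.2 ± 6.09 CPM (log2 fold change 2.95, SE 0.22, edgeR adjusted p = 1.71e-06). This was the smallest adjusted p among the 20 tested keratins. Relative to its neighbour KRT19, its counts were in a ratio of 0.0046 ± 0.0012 in control and 0.045 ± 0.0084 after 5-FU.

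KRT13, the type I keratin of the upper layers of internal stratified epithelia, had 2.51, 1.49 and 2.52 CPM in control and 13.5, 11.1 and 5.82 CPM after 5-FU. It rose (log2 fold change 2.22, SE 0.32, edgeR adjusted p = 9.09e-05), and 5-FU replicate 3 was the lowest treated library by a wide margin. An opposite-strand gene covers 16.3% of its exonic bases. KRT4, the type II partner of KRT13, had 4.22, 5.11 and 3.65 CPM in control and 4.08, 5.53 and 5.59 CPM after 5-FU. Its groups overlapped and it did not pass (0.23, SE 0.22, edgeR adjusted p = 0.372). The ratio of KRT4 to KRT13 counts was 1.68, 3.42 and 1.45 in control and 0.30, 0.50 and 0.96 after 5-FU, with each treated ratio below each control ratio.

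KRT12 and KRT3, the partner keratins of the corneal epithelium, were both called higher from very low levels. KRT12 had 1, 6 and 6 counts in control and 26, 13 and 27 after 5-FU (log2 fold change 2.41, SE 0.53, edgeR adjusted p = 0.0015). KRT3 had 2, 5 and 1 counts in control and 18, 10 and 12 after 5-FU (2.38, SE 0.55, edgeR adjusted p = 0.00211). Neither gene's groups overlapped, and both genes reached the count minimum through the 5-FU libraries alone, where they averaged 1.09 and 0.67 CPM.

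The tested keratins of the basal layer and of wounded skin gave no call apart from KRT15. KRT5, the basal type II keratin, had 11, 15 and 19 counts in control and 22, 20 and 22 after 5-FU. Its groups did not overlap in CPM, but the difference did not pass (0.61, SE 0.34, edgeR adjusted p = 0.129; 0.96 with adjusted p = 0.0254 under upper-quartile scaling). KRT14, its basal partner, was not tested. Of the 5 wound keratins (KRT6A, KRT6B, KRT6C, KRT16 and KRT17) 2 were tested and neither was called. KRT17 had 14, 16 and 27 counts in control and 18, 23 and 15 after 5-FU, a log2 fold change of 0.08 (SE 0.39). KRT16 had 11, 19 and 5 counts in control and 9, 13 and 12 after 5-FU, likewise 0.08 (SE 0.46). Both overlapped between groups, and their signs turned under 6 and 5 of 16 alternatives. KRT6A, which was not tested, had 1, 0 and 5 counts in control and 2, 8 and 30 after 5-FU, so that most of its counts came from 5-FU replicate 3.

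KRT10, the type I keratin of the layers above the basal one, was the most abundant stratified keratin per kilobase, at 16.8 CPM in control and 14 after 5-FU. Its library values were 36.8, 31.8 and 39.2 CPM in control and 24.3, 32.4 and 33.3 CPM after 5-FU. The groups overlapped (-0.26, SE 0.15, edgeR adjusted p = 0.136; 0.10 with upper-quartile scaling), and the difference was called only when genes of low counts were kept in (-0.41, edgeR adjusted p = 0.0212). The 5 markers listed for a check of stratified epithelium, TP63, the transcription factor of basal cells, DSG3, a desmosomal cadherin, and IVL, SPRR1A and SPRR1B of the cornified envelope, had between 0 and 2 counts in every library. Other genes of stratified epithelia, among them FLG, ALOXE3 and COL17A1, had counts in every library and are described below.

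Among the 26 keratins of hair and hair follicle 5 were tested, with 3 called higher, 1 lower and 1 not. KRT71, a type II keratin of the inner root sheath, had 17.4, 18 and 17.4 CPM in control and 12.7, 13.1 and 10.9 CPM after 5-FU. The control libraries were almost equal, and all lay above the 5-FU libraries (log2 fold change -0.52, SE 0.14, edgeR adjusted p = 0.00593). That call was lost with upper-quartile scaling (-0.16, edgeR adjusted p = 0.33) and at a mean count of at least 50 (-0.27, edgeR adjusted p = 0.1). KRT74, its neighbour and also a keratin of the inner root sheath, had 1.66, 1.90 and 2.12 CPM in control and 2.70, 3.13 and 2.51 CPM after 5-FU. Here the 5-FU libraries were all the higher ones, but the difference did not pass (0.55, SE 0.25, edgeR adjusted p = 0.0618). It passed with upper-quartile scaling (0.91, edgeR adjusted p = 0.00696) and with plain library totals (0.66, edgeR adjusted p = 0.0336).

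KRT81 and KRT86 are type II keratins of the hair cortex. KRT81 had 41, 86 and 60 counts in control and 118, 176 and 130 after 5-FU, and was called higher (log2 fold change 1.29, SE 0.28, edgeR adjusted p = 0.00165). KRT86 had 89, 93 and 69 counts in control and 124, 165 and 121 after 5-FU, and was called higher too (0.83, SE 0.22, edgeR adjusted p = 0.00488). No 5-FU library fell into the control range of either gene. Both are uncertain as values of single genes, since 43.7% of the 50-base stretches of KRT81 transcripts and 37.5% of those of KRT86 also occur in other genes, among them each other, KRT83, KRT85 and the pseudogene KRT87P.

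KRT34, a type I hair keratin, had 0, 3 and 1 counts in control and 9, 23 and 31 after 5-FU. All 3 treated libraries were above the control libraries, which lay at or under 3 counts. The fit put it at a log2 fold change of 3.95 (SE 0.74, edgeR adjusted p = 0.000448), a value that depends on the prior count used with so few control counts. It reached the minimum through the 5-FU libraries alone, and 11.4% of its 50-base stretches also occur in KRT31, KRT33A or KRT33B.

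By type, 10 type I genes were tested, of which 5 were called higher and 0 lower. Of 10 tested type II genes 4 were called higher and 2 lower. Of those called higher, 3 of type I and 1 of type II were tested through their 5-FU libraries, which favours a higher call. Over all tested protein-coding genes 27.8% were called higher and 43.6% lower. The CPM of the groups did not overlap for 11 tested keratins with 5-FU higher and for 2 with 5-FU lower. Over all tested genes this held in either direction for 74.3%, and with 5-FU higher for 38.4%. Among the 11, KRT20, KRT5, KRT12, KRT3 and KRT34 were tested through their 5-FU libraries. KRT5 and KRT74 were the 2 that separated the groups without a call.

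The 35 keratins that were not tested were at or near 0. Of these, 7 had no count in any library (KRT24, KRT25, KRT26, KRT28, KRT33A, KRT76 and KRT82) and 28 had some. KRT6A and KRT83 were those that reached 10 counts in a library, and KRT83 had 7, 0 and 1 counts in control and 5, 9 and 11 after 5-FU. Summed over the 35 genes, the counts were 30, 27 and 36 in control and 70, 67 and 113 after 5-FU. Members with at least 1 count numbered 11 or 12 per control library and 21 to 23 per 5-FU library. A gene without a count may still have been present at up to 0.163 CPM, which 3 counts represent in the shallowest library. This limit, and the interval in the next paragraph, cover counting error only.

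Keratins together took 0.493%, 0.357% and 0.405% of all counts in control and 0.264%, 0.397% and 0.363% after 5-FU, with overlapping groups. The exact 95% binomial interval of the first share was 0.491% to 0.496%. Counted without the mitochondrial genome, the share was 0.440% ± 0.073 in control and 0.464% ± 0.085 after 5-FU (SD, n = 3 per group), so the direction of this total turned with the denominator. Per kilobase, the summed level of the simple keratins was 956 ± 186 CPM in control and 723 ± 152 CPM after 5-FU. That of KRT80 and the other unplaced genes was 7.15 ± 2.97 and 23.5 ± 6.44 CPM. The stratified keratins summed to 20.4 ± 1.71 and 25.4 ± 2.09 CPM, and the hair keratins to 11.8 ± 0.76 and 14.5 ± 2.13 CPM.

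The simple keratins made up 95.99% ± 0.47 of keratin CPM per kilobase in control and 91.84% ± 1.03 after 5-FU (SD, n = 3 per group, no test). The lowest control library was at 95.48% and the highest 5-FU library at 92.89%. As a ratio within each library this share does not depend on scaling. Without KRT8 it was 93.15% and 87.43%. With KRT80 and KRT23 counted as simple keratins it was 96.69% and 94.82%, so the distance between the groups was smaller when KRT80 changed sides.

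**Figure D4:**
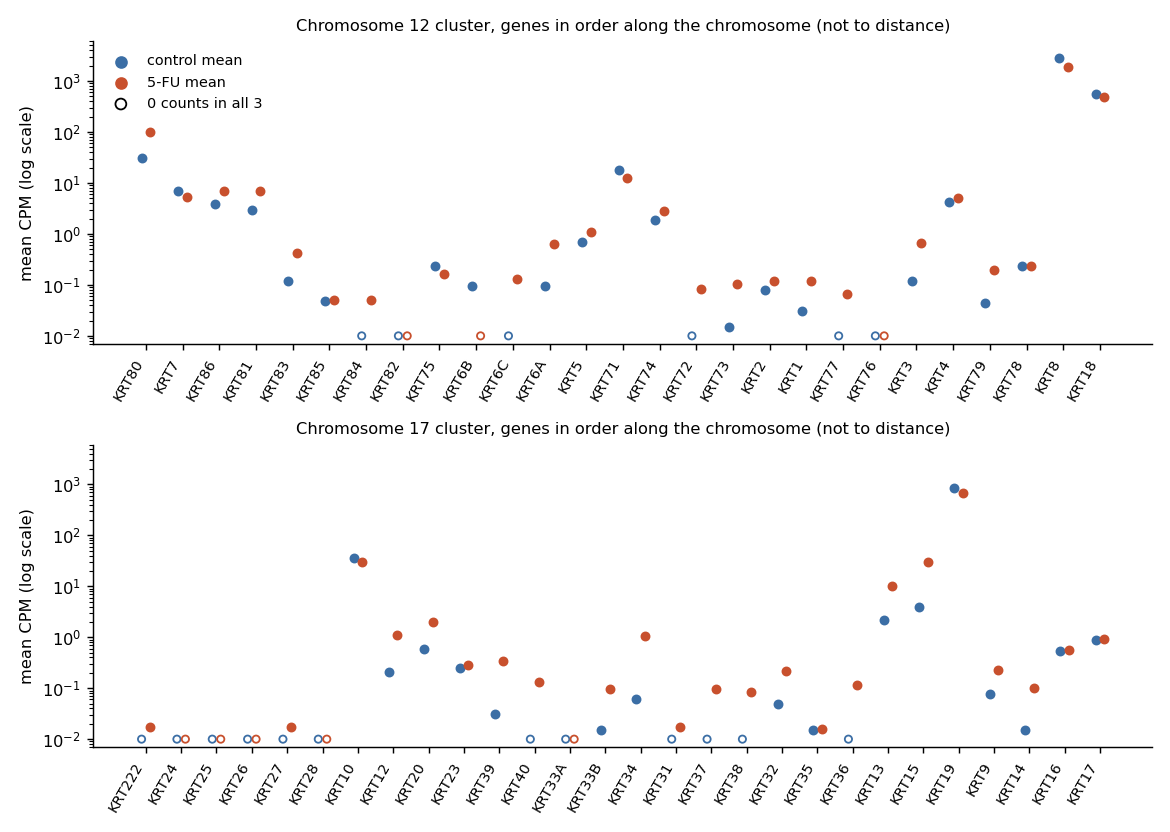
Mean CPM (log axis) of all 55 keratins in their order along chromosome 12 (top) and chromosome 17 (bottom), control in blue and 5-FU in red; open points are groups with 0 counts, drawn at the base. Spacing is by order and not by distance; KRT13 and KRT15 sit beside KRT19, whose red point lies below its blue one.

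Tested neighbours in the clusters were called alike in some places and not in others, most cluster genes were not tested, and no test of neighbours was run. The chromosome 12 cluster holds the type II genes and KRT18, 27 genes from 52168996 to 52952901 (GRCh38, 784 kb), and the chromosome 17 cluster the other 28 genes, from 40654665 to 41624842 (970 kb). KRT13 (41500981 to 41505705), KRT15 (41513743 to 41522529) and KRT19 (41523617 to 41528308) follow each other on the minus strand of chromosome 17, with gaps of 8037 and 1087 bases. KRT13 and KRT15 rose and KRT19, at 369 CPM per kilobase in control against 0.55 for KRT15, did not pass. KRT12 and KRT20, whose promoters are printed above, lie 8716 bases apart and were both called higher from low levels. On chromosome 12 KRT71, called lower, lies between KRT5 and KRT74, neither of which was called. At the other end of that cluster KRT80, KRT86 and KRT81 were called higher and KRT7, which starts between KRT80 and KRT86, was not called. The annotated span of KRT86 overlaps those of KRT7 and KRT81.

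Copies of KRT8 had few counts beside their parent. The table holds 147 pseudogenes named for a keratin, of which 13 were tested, 10 called higher and 0 lower. Among all tested genes that are not protein-coding 57.7% were called higher and 9.38% lower, however they reached the count minimum. KRT16P6, KRT18P15, KRT18P4, KRT18P63 and KRT87P, all called higher, reached it in under 3 control libraries, as did KRT16P2 and KRT8P39, which were not called. Being tested through the 5-FU libraries in that way favours a higher call. KRT8P12, a processed copy of KRT8 on chromosome 3, had 113, 137 and 129 counts in control and 340, 285 and 330 after 5-FU (log2 fold change 1.44, SE 0.16, edgeR adjusted p = 1.64e-05). KRT8P33, on chromosome 5, had 19, 21 and 21 counts against 112, 91 and 90 (2.37, SE 0.25, edgeR adjusted p = 1.12e-05). Both separated the groups completely, in the direction opposite to KRT8. KRT8P3 had 114, 57 and 64 counts against 37, 44 and 55 and did not pass (-0.68, edgeR adjusted p = 0.0575). All counts of KRT8 pseudogenes together equalled 0.378% to 0.495% of the KRT8 counts in control and 1.23% to 2.11% after 5-FU. How reads that fit both a keratin and its copy were counted is not given in the sources used here, and 10.1% of the 50-base stretches of KRT8 and 14.3% of those of KRT18 also occur in other genes. KRT7-AS, an antisense gene that overlaps KRT7, was called higher (1.12, SE 0.38, edgeR adjusted p = 0.0194), with 9 to 17 counts in control and 18 to 34 after 5-FU. It too was tested through its 5-FU libraries.

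Genes of the lists chosen for roles with keratins were all protein-coding where tested. Among tested protein-coding genes 27.8% were called higher and 43.6% lower. Of 19 tested genes of keratin anchorage (desmosomes, plakins and hemidesmosomes) 4 were called higher and 6 lower, with a median log2 fold change of -0.10. COL17A1, the transmembrane collagen of hemidesmosomes, rose from 71.2 ± 26.7 to 432 ± 147 CPM (2.60, SE 0.29), and the plakins DST (1.12) and PLEC (0.92) rose with it. Of the other plakins, DSP was called lower (-0.41, edgeR adjusted p = 0.0077), and EVPL, PPL and EPPK1 were not called. ITGA6, an integrin subunit of hemidesmosomes, fell (-0.89, SE 0.12), as did the desmosomal plakophilins PKP2 (-0.82) and PKP3 (-1.07). PERP, a desmosomal membrane protein and the most abundant of the list per kilobase, did not pass (-0.10, and 0.25 with upper-quartile scaling). The hemidesmosome genes COL17A1, DST and PLEC thus moved against ITGA6. The integrin subunit ITGB4, also of hemidesmosomes, was called higher as well (0.37, edgeR adjusted p = 0.027).

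Of 19 tested genes listed under keratin binding and modification 2 were called higher and 14 lower, with a median of -0.74. YWHAE, a 14-3-3 protein of the family that binds phosphorylated keratins, fell from 733 ± 61.3 to 161 ± 32.8 CPM (-2.19, SE 0.17), and FAM83D (-3.83) and the kinase CDK1 (-3.28) fell further. TRADD, a death-receptor adaptor that binds KRT18, rose (0.84, SE 0.13), as did KRTCAP2 (0.78, SE 0.16), which despite its name is a subunit of the oligosaccharyltransferase. FAM83D and CDK1 are genes of mitosis.

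Of 31 tested regulators of keratin genes 7 were called higher and 14 lower, with a median of -0.23. Of the 31, 3 were tested through their 5-FU libraries, which favours a higher call. ELF3, the ETS factor in the study's title, rose (2.47, SE 0.18), as did GRHL3, a grainyhead factor of epidermal barrier genes (2.01, SE 0.23), and the AP-1 subunit JUN (1.69, SE 0.21). CEBPA (-1.82, SE 0.15), SP3 (-1.06, SE 0.11) and KLF5 (-0.97, SE 0.11) fell, and CEBPB, the most abundant per kilobase, fell too (-0.86).

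Of 10 tested intermediate filament genes other than keratins 2 were called higher and 5 lower, with a median of -0.83. The nuclear lamins LMNB1 (-4.72, SE 0.28), LMNB2 (-2.25, SE 0.15) and LMNA (-1.34, SE 0.14) fell, and LMNA, the most abundant of them per kilobase, went from 910 ± 84.6 to 359 ± 27.4 CPM. GFAP (1.99, SE 0.45) and PRPH (1.56, SE 0.29), filaments of glia and neurons, rose from 0.29 and 2.28 CPM. GFAP was tested through its 5-FU libraries, which favours a higher call. Vimentin (VIM), the filament of mesenchymal cells, named here after its value was seen, stood at 1.86 ± 1.14 and 3.07 ± 0.91 CPM and did not pass (0.72, edgeR adjusted p = 0.116).

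The cornified envelope is the cross-linked shell that stratified epithelia build around their keratin. Of 31 listed genes 30 were in the table and 14 were tested, 4 of them through the 5-FU libraries. Of the 14, 10 were called higher and 2 lower, with a median of 1.77. The 4 tested through the 5-FU libraries were SCEL, SBSN, FLG2 and TGM5, and all are among the 10. Reaching the minimum in that way favours a higher call. SCEL, sciellin, had 12, 5 and 2 counts in control and 147, 115 and 122 after 5-FU (4.43, SE 0.39), and SBSN had 8, 8 and 3 against 131, 66 and 75 (3.93, SE 0.42). ALOXE3, a lipoxygenase of the skin barrier, rose from 6.80 ± 2.22 to 30.04 ± 5.16 CPM (2.14, SE 0.23). FLG, filaggrin, which bundles keratin filaments and is named here after its value was seen, rose from 12.8 ± 3.87 to 37.2 ± 8.23 CPM (1.53, SE 0.22). CNFN, cornifelin (-1.25, SE 0.25) and S100A9, a calcium-binding protein (-1.85, SE 0.33), fell. Most of these genes were low in the control libraries. Over all tested genes with a mean of both groups under 10 CPM, 53.8% were called higher. At or above that mean, where ALOXE3 and FLG lie, 21.4% were called higher. The small proline-rich (SPRR) genes of the list had too few counts to be tested.

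**Figure D5:**
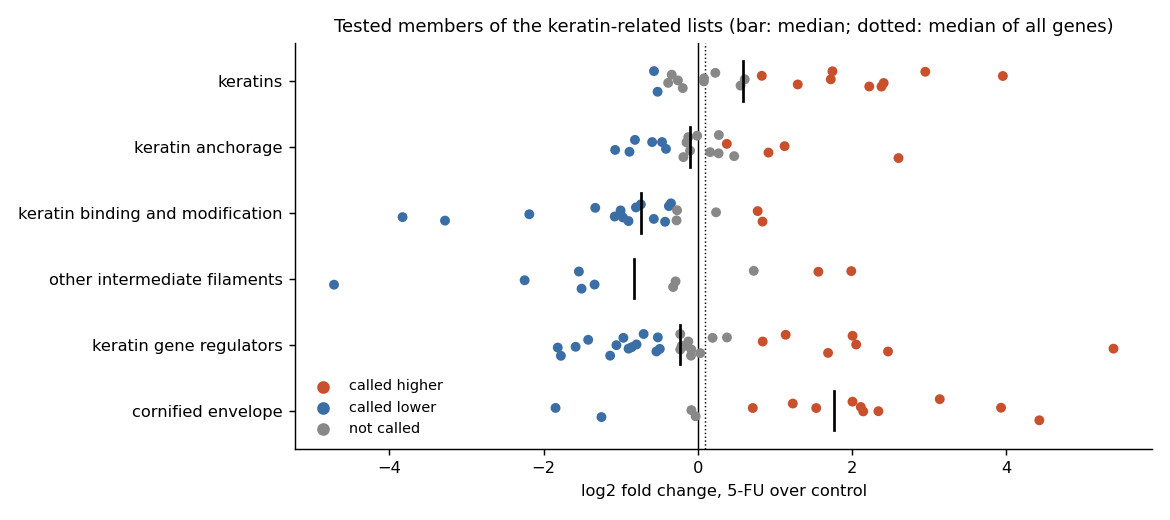
Log2 fold change (5-FU over control) of every tested gene of the keratins and of 5 lists of genes related to them; each point is a gene, red called higher, blue lower, grey not called, the black bar the list's median and the dotted line the median of all tested genes. Medians run from -0.83 for other intermediate filaments to 1.77 for the cornified envelope.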

How the data were processed

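RNA had been extracted with TRIzol and libraries made with the NEBNext Ultra kit, per the labels' protocols. The submitters' processing notes name DESeq2 1.16.1, featureCounts 1.5.0-p3 and HISAT2 2.0.5 with build GRCh38; the strand setting is not given in the sources used here, nor is the handling of multi-mapping reads. Whole-number counts per gene make up the deposited count table, and all 58735 positions matched GENCODE 29. The deposited FPKM equal count over gene length over 1 constant per library, which was 0.892 to 0.986 times the total in control and 1.07 to 1.16 times in 5-FU libraries.

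Groups came from the treatment label. All 6 libraries were fitted with edgeR 4.0.16 in R 4.3.3 (quasi-likelihood test, filterByExpr at minimum count 10 and total 15, TMM factors, group alone as design), with Benjamini-Hochberg adjustment over 19771 genes and an adjusted p under 0.05 called. CPM are TMM-normalized. CPM per kilobase use the deposited gene length. SE is the unshrunk coefficient over the square root of F. Exon overlap and shared 50-base stretches were computed from GENCODE 29. The fit was tested on simulated data.

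The members and the lists were chosen with earlier results of these data known. The text names every tested keratin, untested ones with at least 10 counts in a library, up to 3 genes of smallest p per direction and the most abundant gene of each list, and the 2 most abundant markers; other names were added after their values were seen. Alternatives were other scalings and filters, DESeq2 1.42.0, limma-voom and limma-trend in limma 3.58.1 on log2(FPKM + 1) and log2(FPKM + 0.1), which understate changes of low genes, the replicate number as a block, and each library left out. Principal transcript lengths, leaving out KRT8, and leaving out both groups' replicate 1 were chosen after seeing the data.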

Additional observations from a re-analysis of the deposited data

How the results depend on the processing

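Of the 9 keratins higher and 2 lower, the numbers were 9 and 2 with DESeq2 size factors, without mitochondrial genes, in DESeq2, in limma-voom and with the replicate block. Replicate numbers did not pair the libraries (correlations of deviations -0.07, -0.20 and 0.06). At a mean count of at least 50, 12 keratins were tested and 5 were higher and 0 lower; both filtered FPKM scales also gave 5 higher, with 12 tested. Upper-quartile factors gave 12 higher and 0 lower, plain totals 1 lower, no low-count filter 5 lower, log2(FPKM + 1) without a filter 1 lower, and leaving out both groups' replicate 1, 1 lower. Leaving out 1 library gave 9 to 10 higher and 1 to 3 lower. Over all genes the split moved from 36.3% higher and 33.9% lower to 48.6% and 23.3% with upper-quartile factors, where the median rose to 0.45, and to 26.8% and 44.3% on filtered log2(FPKM + 1). Calls lost were those of KRT8 under 7 settings and KRT71 under 2. On log2(FPKM + 1) without a filter those of KRT86 (limma adjusted p = 0.0549) and GFAP (limma adjusted p = 0.0852) were lost too. Calls gained were those of KRT4 (0.58), KRT5 (0.96), KRT74 (0.91) and CDH1 (0.52) with upper-quartile factors, KRT74 with plain totals (0.66), CDH1 at a mean count of at least 50 (0.41), KRT7 (-0.53), KRT10 (-0.41) and KRT19 (-0.49) without a filter, KRT19 without control replicate 2 (-0.53) and KRT7 without 5-FU replicate 2 (-0.57). The simple share was 97.52% in control and 93.38% in 5-FU libraries from raw counts, 96.69% and 94.82% with KRT23 and KRT80 as simple, 98.18% and 95.87% with principal lengths, and 93.15% and 87.43% without KRT8; leaving out 1 library gave 95.77% to 96.24% and 91.31% to 92.34%. Log2 fold changes that changed sign, none of them called, were as follows. With upper-quartile factors KRT19 was at 0.020, KRT18 at 0.16, KRT10 at 0.10, PERP at 0.25 and CD14 at 0.24. At a mean count of at least 50 KRT18 was at 0.053, PERP at 0.14 and CD14 at 0.13, and with plain totals PERP at 0.0054. Without a filter KRT17 was at -0.067 and KRT16 at -0.065, and on unfiltered FPKM at -0.013 and -0.0026. Leaving out 1 library put KRT17 between -0.16 and 0.43, KRT16 between -0.29 and 0.56, KRT18 between -0.36 and 0.00074 and PERP between -0.37 and 0.20. Without both replicates 1, KRT18 was at 0.12, KRT17 at -0.11 and PERP at 0.20. The cause of these changes was not tested. The low-count filter left out keratins of few counts, most of which could be fitted without it (48 tested, 13 higher).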

Other observations

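Keratin-associated proteins, which cross-link keratins in the hair shaft, are encoded by 94 genes of the table, of which 46 had no count in any library and 4 were tested. All 4 were called higher after 5-FU, where 53.8% of tested genes with a mean under 10 CPM were, and they are named here after their values were seen. KRTAP5-1 had 1 count in each control library and 103, 121 and 65 after 5-FU (log2 fold change 6.54, SE 0.51, edgeR adjusted p = 1.7e-06). KRTAP3-1 had 1, 1 and 0 counts in control and 11, 37 and 13 after 5-FU, and KRTAP4-1 had 7, 5 and 3 against 16, 21 and 30. KRTAP2-3 had 35, 5 and 15 counts in control and 50, 343 and 122 after 5-FU, with 5-FU replicate 2 far above the others. All 4 reached the count minimum in fewer than 3 control libraries and so were tested through the 5-FU libraries. This favours a higher call, whereas the 53.8% covers low genes however they reached the minimum.

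Among other keratin pseudogenes, KRT89P in the chromosome 12 cluster had 30, 33 and 17 counts in control and 57, 76 and 85 after 5-FU (1.56, SE 0.29, edgeR adjusted p = 0.000516). KRT16P6 and KRT17P4, unprocessed copies on chromosome 17, had 2, 5 and 7 against 27, 19 and 17 counts and 20, 19 and 14 against 55, 33 and 37 counts. Both were called higher, while KRT16 and KRT17 themselves were not. KRT16P6 and KRT16 were each tested through their 5-FU libraries, which favours a higher call. The difference between a copy and its parent was not tested. Counts of all 6 KRT16 pseudogenes together were 136% to 300% of those of KRT16 in control and 317% to 722% after 5-FU. For the 8 KRT17 pseudogenes they were 100% to 188% and 196% to 461%. Reads shared between these copies and their parents could not be assigned from the table, and 16.5% of the 50-base stretches of KRT16 and 9.02% of those of KRT17 occur in other genes.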
